A study of Mus musculus with 12 samples.

Results

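The genes examined here are those of glutamate uptake and the glutamine cycle in cultured mouse astrocytes. They were chosen by gene name: *Slc1a1*, *Slc1a2*, *Slc1a3*, *Slc1a4* and *Slc1a5* of the Slc1 carrier family, and the enzyme genes *Glul* and *Glud1*. Of these 7 genes, 6 were rows of the count table of 18903 genes, and all 6 were among the 17938 genes tested. *Slc1a1*, the carrier EAAT3, was not analysed here. Primary astrocytes cultured from brains at postnatal day 1 (P1), P6 and P8 had been sequenced as 12 libraries, a pair per genotype at each age, to follow gene expression after loss of *Rack7* (gene symbol *Zmynd8*), a chromatin reader. By the study's definition of its labels, cKO mice were hGFAP-Cre with *Rack7* fl/fl and WT mice hGFAP-Cre with *Rack7* +/+, so that both groups carried this Cre transgene under the human GFAP promoter, and the floxed line was made in C57BL/6 zygotes. This Cre acts from embryonic stages in neural stem cells of the pallium, so deletion lies mainly in cortex and hippocampus, while the cultures are labelled as coming from brain. The meninges had been stripped off, cells were grown on Matrigel in a commercial astrocyte medium, and shaking was used to detach microglia and oligodendrocytes before further growth to confluence. The labels call the 2 libraries of a group biological replicates, and no source used here gives the number of animals behind each culture.

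Astrocytes clear glutamate that neurons release. *Slc1a3* (GLAST, EAAT1) and *Slc1a2* (GLT-1, EAAT2) encode the sodium-driven carriers that take it up, and *Glul* encodes glutamine synthetase, which joins ammonia to glutamate so that glutamine can be handed back to neurons. *Glud1* encodes glutamate dehydrogenase, the mitochondrial enzyme that interconverts glutamate and 2-oxoglutarate, while *Slc1a4* (ASCT1) and *Slc1a5* (ASCT2) encode exchangers of neutral amino acids, the latter with glutamine among its substrates. In the brain *Slc1a3* is prominent early in glial development and *Slc1a2* gains ground as astrocytes mature.

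Library totals lay between 54413504 and 89183250 counts, and values are given as counts per 1000000 (CPM) after scaling by the trimmed mean of M values (TMM). A gene was called when edgeR's quasi-likelihood test gave a Benjamini-Hochberg adjusted p below 0.05, over all genes tested, with a fold change of at least 1.5. Astrocyte markers were present in every library, with *Aqp4*, *Gfap* and *Gja1* highest in the mean over all libraries, and their summed level over the 10 markers in the table ran from 1801 and 1827 CPM in the P1 libraries labelled WT to 583 and 582 CPM in the P8 libraries labelled cKO. The targeted gene went against the label: *Zmynd8* was at 160 to 241.5 CPM in the libraries labelled cKO and at 99.98 to 136 CPM in those labelled WT, higher in cKO by 1.57-fold at P1 to 2.05-fold at P6. Counts per gene do not separate the targeted exons, and each genotype difference below is one between labels. In bulk RNA, fewer cells of a type and less RNA per cell cannot be told apart.

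Seen together, the 6 genes divided by time and by label. *Slc1a3* fell from P1 to P8 in both labels, whereas *Slc1a5* rose in both but stayed lower in the libraries labelled cKO at P6 and P8, 3.19-fold and 2.45-fold. *Slc1a5* was the one gene of the 6 called between labels at any time point. *Glul* and *Glud1* differed between labels by less than 1.5-fold, in opposite directions at P6 and P8. *Slc1a2* was lower in both P8 libraries labelled cKO, but the gap between 2 P1 replicates widened the error of that comparison.

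**Figure D1:**
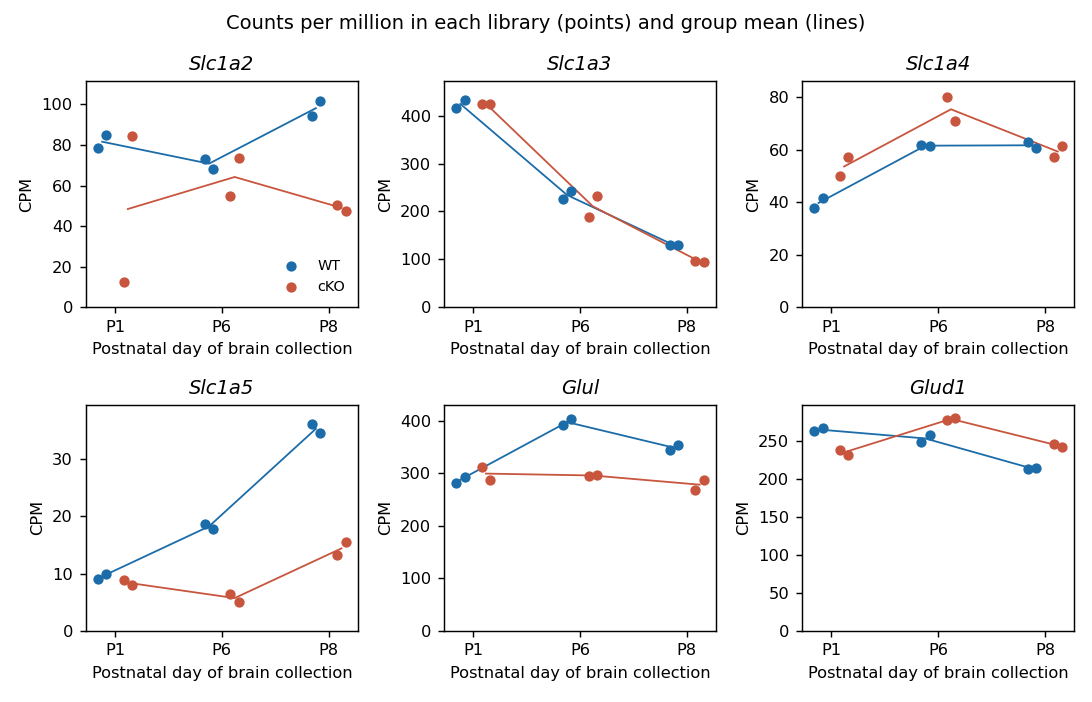
Level of each gene in CPM (vertical axes, from 0) against the postnatal day of brain collection, with 1 point per library, 2 per group, and lines through the group means, blue for WT and red for cKO. *Slc1a3* descends in both labels, *Slc1a5* climbs to 36.1 and 34.5 CPM in the P8 libraries labelled WT against 13.3 and 15.5 CPM in those labelled cKO, and 1 P1 library labelled cKO stands at 12.6 CPM for *Slc1a2* beside 84.2 CPM in its replicate.

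*Slc1a3* lies on the minus strand at chr15:8634124-8710764 (GRCm38, ENSMUSG00000005360) and is a defining transcript of immature and mature astrocytes. At P1 its level was 416 and 433 CPM in the libraries labelled WT and 425 and 425 CPM in those labelled cKO. The P6 libraries had 226 and 243 CPM for WT and 189 and 232 CPM for cKO. By P8 the values were 129 and 129.6 CPM for WT and 95.8 and 94.7 CPM for cKO. All P6 libraries were below all P1 libraries, and all P8 libraries below all P6 libraries. Of the 10 astrocyte markers in the table, 5 were called lower and 2 higher in WT from P1 to P8. In cKO 7 were called lower and 1 higher, with 29.4% of all genes called in WT and 20.3% in cKO. The part of a changing mix of cells in the fall of *Slc1a3* was not tested. From P1 to P6 *Slc1a3* fell by 0.86 ± 0.082 (SE) on the log2 scale in WT, with an adjusted p of 3.2e-05, and by 1.01 ± 0.0823 in cKO, with an adjusted p of 1.37e-05. From P6 to P8 it fell by another 0.86 ± 0.0822 in WT (adjusted p = 4.73e-05) and by 1.15 ± 0.0827 in cKO (adjusted p = 4.55e-06). Over the whole interval this came to 3.28-fold in WT and 4.46-fold in cKO. The labels did not differ detectably at P1, where the log2 difference was 0.00 with a 95% interval of -0.18 to 0.19, and overlapped at P6 at -0.15 (-0.34 to 0.03). At P8 both libraries labelled cKO were below both labelled WT, with a log2 difference of -0.44 ± 0.0819 and an adjusted p of 0.00256, a fold of 1.36 that was under the 1.5-fold cut-off. *Gm37310*, a gene model on the same strand that overlaps *Slc1a3*, had 2.09 to 10.04 CPM.

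The promoter of *Slc1a3* is shown because this gene fell at every step in time under both labels. It is the RefSeq sequence of GRCm38.p6, chr15:8710778-8711057, minus strand, from 250 bases before the RefSeq start to 30 after it, and capitals mark matches on either strand to 5 motifs: TTGCATCA (a composite element for C/EBP and ATF factors), CACGTG (an E-box), GGGCGG (a GC box), CCAAT and TATAAA. No match of one motif shared a base with a match of another.
Slc1a3: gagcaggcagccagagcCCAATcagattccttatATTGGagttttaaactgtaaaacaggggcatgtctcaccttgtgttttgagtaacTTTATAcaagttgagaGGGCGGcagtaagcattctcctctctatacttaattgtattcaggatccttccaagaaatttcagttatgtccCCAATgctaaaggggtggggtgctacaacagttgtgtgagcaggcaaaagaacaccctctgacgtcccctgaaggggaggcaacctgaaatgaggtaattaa
Searched up to 50 bases after the start, the window held 3 CCAAT matches, 1 GGGCGG match and 1 TATAAA match 161 bases before the start. Among 27025 mouse promoters of this length, 37.9% held CCAAT, 35.9% GGGCGG and 14.2% TATAAA on either strand.

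*Slc1a2*, the second glutamate carrier of astrocytes, lies on the plus strand at chr2:102658659-102790784 (ENSMUSG00000005089). Its level at P1 was 78.3 and 84.9 CPM in the libraries labelled WT, but 12.6 CPM in replicate 1 labelled cKO and 84.2 CPM in replicate 2. At P6 it was 73.2 and 68.4 CPM for WT and 54.6 and 73.8 CPM for cKO, which overlapped. At P8 it was 94.6 and 101.8 CPM for WT and 50.6 and 47.4 CPM for cKO, so that all WT values were above all cKO values. With all libraries in the fit no comparison of *Slc1a2* was called. The log2 difference of cKO from WT was -0.75 ± 0.616 at P1 (adjusted p = 0.558). It was -0.14 ± 0.612 at P6 (adjusted p = 0.912) and -1.003 ± 0.617 at P8 (adjusted p = 0.256). These standard errors were over 3 times those of any other gene of the group.

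The width of these errors came with the gap between the 2 P1 replicates labelled cKO. The P1 replicates labelled cKO differed 6.64-fold in *Slc1a2*, and among 10531 genes with a mean of at least 10 CPM only 17, or 0.161%, *Slc1a2* included, were at least as far apart there, 9 lower and 8 higher in replicate 1. The P8 difference draws on the P8 libraries only, so leaving out a P1 library could not move it beyond scaling. Without replicate 1 of P1 labelled cKO it was -1.003, and at P1 the log2 difference of *Slc1a2* from WT was 0.04. *Slc1a2* was then also lower at P8 than at P1 within cKO, at -0.78, where all libraries together gave 0.02 (adjusted p = 0.987). Without replicate 2 in its place, the P1 difference became -2.70 and the P8 difference was again -1.003. Leaving out either replicate also took the gap between them out of the error. Fitted on the 4 P8 libraries alone, the P8 difference was -1.02 with an adjusted p of 0.000548. These 3 fits took the P8 difference of *Slc1a2* from the same 4 P8 libraries, so their likeness adds no support for it. With all libraries it was -1.003 and not called (adjusted p = 0.256). The P1 difference ranged from 0.04 to -2.70 with the library left out. Leaving out a P1 library labelled cKO left 1 in that group, which was taken to vary as the other groups do. In replicate 1 the neighbouring genes *Pamr1* and *Cd44* stood at 25.3 and 324 CPM, beside 25.8 and 399 CPM in replicate 2, and the summed astrocyte markers at 1745 CPM beside 1720 CPM. *Gm13872*, which overlaps *Slc1a2* on the other strand, was not used here.

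*Slc1a4* encodes ASCT1, an exchanger of serine, alanine and other neutral amino acids that belongs to the glutamate carrier family by sequence. It lies on the minus strand at chr11:20302180-20332713 (ENSMUSG00000020142). Its P1 values were 37.7 and 41.6 CPM for WT and 49.9 and 57.2 CPM for cKO. The P6 values were 61.6 and 61.3 CPM for WT and 79.9 and 70.8 CPM for cKO. The P8 values, 62.8 and 60.5 CPM for WT and 57.3 and 61.2 CPM for cKO, overlapped. Libraries labelled cKO were thus the higher ones at P1 and P6 and no longer at P8. The log2 difference was 0.43 ± 0.0897 at P1 (adjusted p = 0.0167) and 0.29 ± 0.0892 at P6 (adjusted p = 0.0392), which are 1.35-fold and 1.23-fold and below the cut-off, and -0.06 ± 0.0892 at P8 (adjusted p = 0.677). In WT, *Slc1a4* rose 1.55-fold from P1 to P6 (adjusted p = 0.000436) and then held its level, with a P8 to P6 difference of 0.00 and a 95% interval of -0.20 to 0.21. That rise did not reach 1.5-fold without replicate 1 of P1 labelled WT, where the log2 difference was 0.56. In cKO the P1 to P6 difference was 0.49 ± 0.0895 (adjusted p = 0.00209), 1.41-fold.

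The promoter of *Slc1a4* is shown because it was the only one of the group to hold the C/EBP-ATF element. The sequence is RefSeq, GRCm38.p6, chr11:20332684-20332963, minus strand, with the same window and the same use of capitals.
Slc1a4: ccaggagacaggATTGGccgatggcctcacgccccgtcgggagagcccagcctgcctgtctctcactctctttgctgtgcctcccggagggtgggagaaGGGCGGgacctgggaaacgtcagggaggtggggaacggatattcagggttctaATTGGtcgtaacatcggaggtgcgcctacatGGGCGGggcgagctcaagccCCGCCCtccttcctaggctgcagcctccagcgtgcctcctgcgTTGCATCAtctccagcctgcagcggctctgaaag
Its TTGCATCA match began 4 bases before the start. This element was in 251 of the 27025 promoters, or 0.929%, and among 31 promoters of the wider pathway described below it was also in those of *Slc7a11*, with 2 matches, and *Got1*, with 1. The window of *Slc1a4* also held 3 GGGCGG and 2 CCAAT matches. CACGTG, present in 7.24% of promoters, was in none of the windows of the genes that had one. *Slc1a5* was not among the promoter sequences used here.

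*Slc1a5* encodes ASCT2, an exchanger that moves glutamine and other neutral amino acids across the plasma membrane. It lies on the plus strand at chr7:16781340-16798274 (ENSMUSG00000001918). At P1 its level was 9.09 and 9.93 CPM in the libraries labelled WT and 8.81 and 7.99 CPM in those labelled cKO. At P6 the WT libraries had 18.7 and 17.8 CPM and the cKO libraries 6.47 and 4.96 CPM, and at P8 the WT libraries had 36.1 and 34.5 CPM and the cKO libraries 13.3 and 15.5 CPM. Every library labelled WT was above every library labelled cKO at the same time point, and both P8 values for cKO were below the P6 values for WT. *Slc1a5* was lower in cKO by a log2 difference of -1.67 ± 0.139 at P6 (adjusted p = 2.64e-05) and of -1.29 ± 0.135 at P8 (adjusted p = 6.86e-05). At P1 the difference was -0.18 ± 0.136, with a 95% interval of -0.49 to 0.13 and an adjusted p of 0.518. In WT it rose 1.92-fold from P1 to P6 (adjusted p = 0.000471) and 1.93-fold from P6 to P8 (adjusted p = 0.000524), or 3.71-fold over the whole interval. In cKO the P6 libraries were below the P1 libraries by 1.47-fold (adjusted p = 0.011), just under the cut-off, before *Slc1a5* rose 2.52-fold from P6 to P8 (adjusted p = 4.98e-05).

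Markers of other cell types also differed between labels. The summed level of 8 fibroblast markers, mostly collagens, was 356 and 369 CPM at P1, 6561 and 6609 CPM at P6 and 25710 and 25590 CPM at P8 in the libraries labelled WT. In those labelled cKO it was 2438 and 2410 CPM at P1, 2573 and 2395 CPM at P6, and 8092 and 8344 CPM at P8. At P1 the fibroblast sum was higher in cKO, and *Slc1a5* was at 8.81 and 7.99 CPM in cKO beside 9.09 and 9.93 CPM in WT. By the call, 6 of the 8 fibroblast markers were lower in cKO at P6, and 6 were lower and 1 higher at P8. At P1, 6 were higher. Of the defining markers *Dpt* was at 0 in 7 of the 12 libraries and *Lum* in both P6 libraries labelled cKO. The 4 endothelial markers in the table summed to 25.6 and 23.8 CPM in WT and 50.2 and 47.6 CPM in cKO at P1. The sums were lower in cKO at P6, with 123.5 and 120 CPM in WT and 58.5 and 62.5 CPM in cKO, and at P8, with 148 and 161 CPM in WT and 39.9 and 37.0 CPM in cKO. By the call 2 of the 4 were higher at P1, 3 were lower at P6, and at P8 2 were lower (*Cdh5* and *Tek*) and 1, *Flt1*, higher. Their part in the result was not tested.

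**Figure D2:**
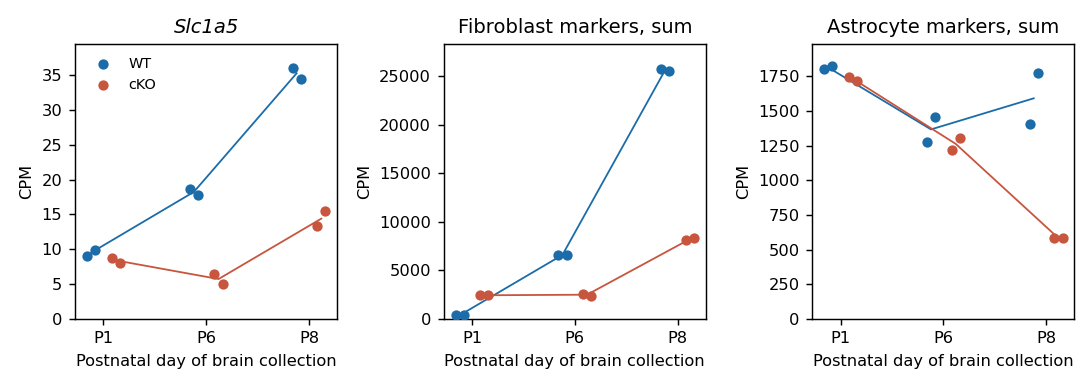
*Slc1a5* in CPM (left) beside the summed level of the fibroblast markers (middle) and of the astrocyte markers (right), both in CPM and each axis from 0, against the postnatal day of brain collection, with 1 point per library and lines through the means of 2. *Slc1a5* and the fibroblast sum both stand highest in the P8 libraries labelled WT, while the astrocyte sum is lowest, at 583 and 582 CPM, in the P8 libraries labelled cKO.

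*Glul*, the glutamine synthetase gene and itself a widely used astrocyte marker, lies on the plus strand at chr1:153899944-153909723 (ENSMUSG00000026473). At P1 its level was 281 and 294 CPM for WT and 312 and 287 CPM for cKO. At P6 WT had 391 and 403 CPM and cKO 294 and 297 CPM. The P8 libraries had 344 and 353 CPM for WT and 269 and 287 CPM for cKO. The labels overlapped at P1 and were apart at P6 and P8, where WT was higher. The log2 difference of cKO from WT was 0.06 ± 0.0502 at P1 (adjusted p = 0.589). It came to -0.43 ± 0.0503 at P6 (adjusted p = 0.000247) and to -0.33 ± 0.0502 at P8 (adjusted p = 0.000858), where 1.34-fold and 1.25-fold were below the cut-off. In WT, *Glul* was 1.38-fold higher at P6 than at P1 (adjusted p = 7.24e-05). In cKO the same step was -0.02 ± 0.0502, with a 95% interval of -0.13 to 0.10. *Mir8114*, which overlaps *Glul* on the same strand, was at 0.017 to 13.7 CPM, and *Teddm2* overlaps it on the other strand.

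The promoter of *Glul* is shown as that of the gene with the highest level per length. It is the RefSeq sequence of GRCm38.p6, chr1:153899679-153899958, plus strand, in the same window.
Glul: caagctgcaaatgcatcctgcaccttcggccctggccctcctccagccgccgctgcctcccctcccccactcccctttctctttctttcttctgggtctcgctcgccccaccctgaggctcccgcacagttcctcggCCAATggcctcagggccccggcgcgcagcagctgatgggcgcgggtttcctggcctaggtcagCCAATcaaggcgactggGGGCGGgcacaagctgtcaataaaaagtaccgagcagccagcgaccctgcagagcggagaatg
It held 2 CCAAT matches, 113 and 50 bases before the start, and 1 GGGCGG match 33 bases before it.

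*Glud1* lies on the plus strand at chr14:34310727-34345265 (ENSMUSG00000021794), with no overlapping gene in the annotation. Its levels were 263 and 267 CPM for WT and 238 and 231 CPM for cKO at P1, and 248 and 258 CPM for WT and 278 and 279.9 CPM for cKO at P6. At P8 they were 212 and 215 CPM for WT and 246 and 242 CPM for cKO. The libraries labelled cKO were below those labelled WT at P1 and above them at P6 and P8, without overlap at any time point. The log2 difference was -0.17 ± 0.0361 at P1 (adjusted p = 0.0169). It was 0.14 ± 0.0361 at P6 (adjusted p = 0.0194) and 0.19 ± 0.0361 at P8 (adjusted p = 0.00285). None of these reached 1.15-fold.

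**Figure D3:**
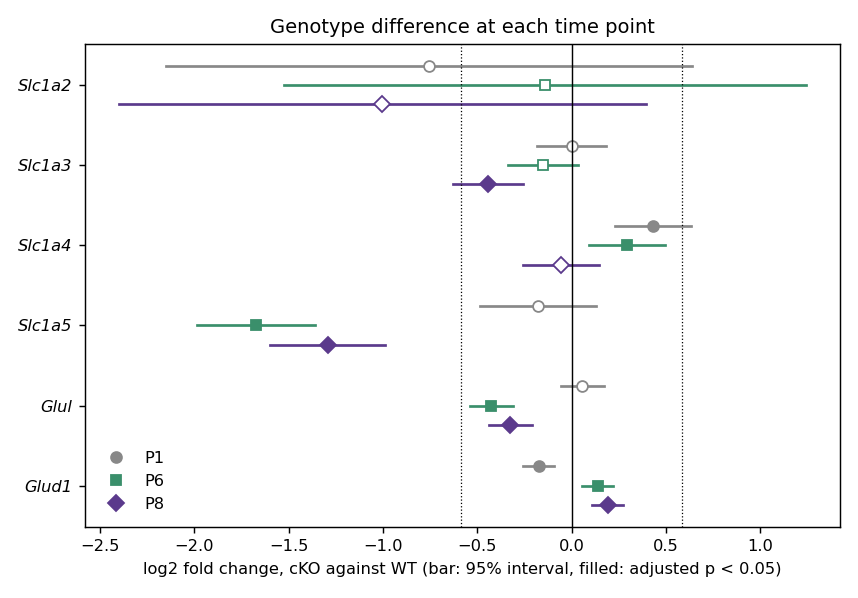
Log2 fold change of cKO against WT (horizontal axis) for each gene at P1 (grey), P6 (green) and P8 (purple), with 95% intervals from edgeR as bars, filled symbols for an adjusted p below 0.05 and dotted lines at a fold change of 1.5. *Slc1a5* at P6 and P8 lies beyond the dotted line with its whole interval, and the intervals of *Slc1a2* are the widest.

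Read by comparison, none of the 6 genes was called between labels at P1, 1 was at P6 and 1 at P8, while 4.9%, 13.5% and 19.6% of all genes tested were. At P1 the number was also 0 by DESeq2 and by unadjusted p with the same fold change. By adjusted p alone the counts were 2, 4 and 4 of 6, with 9.48%, 25.7% and 34.4% of all genes. The groups did not overlap for 3, 4 and 5 of the 6 genes, with 51.2%, 59% and 70.8% of all genes. The median log2 difference of the 6 was -0.09 (P1), -0.15 (P6) and -0.38 (P8), beside 0.00, 0.00 and 0.01 over all genes tested. With time in WT, 3 of the 6 were called from P1 to P6 (*Slc1a3*, *Slc1a4* and *Slc1a5*) and 2 from P6 to P8 (*Slc1a3* and *Slc1a5*), with 23.1% and 18.9% of all genes. In cKO *Slc1a3* alone was called from P1 to P6, and *Slc1a3* and *Slc1a5* from P6 to P8, with 21.4% and 24% of all genes. From P1 to P8, 3 genes were called in WT and 2 in cKO, with 29.4% and 20.3% of all genes. The comparisons at different time points share no library, but a step in time and a difference between labels share the libraries in which they meet.

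Whether a genotype difference itself changed with time was tested as an interaction term, called by an adjusted p below 0.05. From P1 to P6 the difference moved down for *Slc1a5*, by -1.49 ± 0.193 (adjusted p = 0.000782), and for *Glul*, by -0.48 ± 0.071 (adjusted p = 0.00163), and up for *Glud1*, by 0.31 ± 0.051 (adjusted p = 0.00299). These were 3 of 6 genes, with 15.3% of all genes called. From P1 to P8 it moved for 5 of 6, with 25.7% of all genes: down for *Slc1a5* (-1.11 ± 0.19, adjusted p = 0.00217), *Slc1a4* (-0.49 ± 0.126, adjusted p = 0.0194), *Slc1a3* (-0.44 ± 0.115, adjusted p = 0.0204) and *Glul* (-0.38 ± 0.071, adjusted p = 0.00348), and up for *Glud1* (0.37 ± 0.051, adjusted p = 0.000653). For *Slc1a3* the call was lost without any 1 of 7 libraries, every P1 and P8 library but replicate 2 of P1 WT, with an adjusted p of 0.0537 to 0.0705. For *Slc1a4* it was lost without replicate 1 of P1 WT, replicate 2 of P1 cKO, replicate 1 of P8 WT or replicate 1 of P8 cKO, at 0.0628 to 0.0734. From P6 to P8 edgeR called none of the 6, with 21.5% of all genes, while 2 had an unadjusted p below 0.05, with 33.2% of all genes, and DESeq2 called 1, *Slc1a4*.

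**Figure D4:**
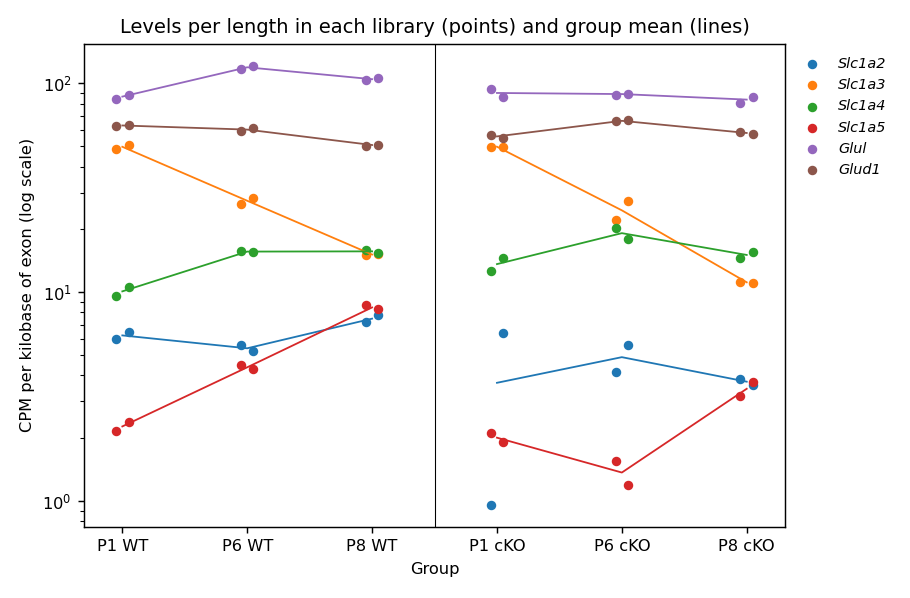
CPM per kilobase of exon on a log axis in each of the 12 libraries (points, with lines through the group means), for the WT groups on the left and the cKO groups on the right. *Glul* is uppermost in all 6 groups, *Slc1a3* descends to the level of *Slc1a4* by P8, and *Slc1a5* crosses *Slc1a2* in WT but not by mean in cKO.

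To compare genes with each other, CPM was divided by the kilobases covered by all annotated exons of a gene. *Glul* had the highest level per length in all 6 groups, with group means between 83.7 and 119.5 CPM per kilobase, and *Glud1* came next at 50.7 to 66.2. *Slc1a3* came after them at P1, at 49.7 CPM per kilobase in WT and 49.8 in cKO, and had gone to 15.2 and 11.2 at P8. It then stood below *Slc1a4*, at 15.7 and 15.1. *Slc1a2* and *Slc1a5* were the lowest, at 6.22 and 2.28 CPM per kilobase in P1 WT, and *Slc1a5* was above *Slc1a2* in P8 WT at 8.46 against 7.48. The order of neighbours was free of overlap between libraries except for *Slc1a2* and *Slc1a5* in P1 cKO and in P8 cKO. The order depended on the length used: per kilobase of the longest coding transcript *Slc1a3* had 102 in P1 WT, above *Glud1* at 78.1, and at P8 it stayed above *Slc1a4*, at 31.1 against 15.7 in WT.

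Ratios within a library are free of its total. The CPM of *Slc1a3* over that of *Slc1a2*, without correction for length, was 5.32 and 5.10 in P1 WT, 3.08 and 3.55 in P6 WT, and 1.37 and 1.27 in P8 WT. In P1 cKO it was 33.7 and 5.05, in P6 cKO 3.46 and 3.15, and in P8 cKO 1.89 and 1.999, so that the ratio fell with time in either label. Per kilobase of exon *Slc1a3* was still above *Slc1a2* at P8, at 15.2 against 7.48 in WT and 11.2 against 3.73 in cKO. *Slc1a4* over *Slc1a5* was 3.30 and 3.44 in P6 WT against 12.3 and 14.3 in P6 cKO, and 1.74 and 1.75 in P8 WT against 4.30 and 3.96 in P8 cKO. *Glul* over *Glud1* was 1.58 and 1.56 in P6 WT and 1.62 and 1.64 in P8 WT, against 1.06 and 1.06 and then 1.09 and 1.19 in cKO. At P1 the order was the other way, with 1.07 and 1.10 in WT and 1.31 and 1.24 in cKO.

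The wider pathway was described by a list of 46 genes for other carriers of glutamate and glutamine, enzymes, mitochondrial carriers, GABA handling, and the ion pumps and channels on which uptake depends. Of these, 35 were in the table and all 35 were tested. By the call 6 were higher and none lower in cKO at P1, 3 higher and 5 lower at P6, and 1 higher and 8 lower at P8. Of all genes, 4.01% were called higher and 0.892% lower at P1. For P6 these shares were 7.16% and 6.38%, and for P8 11.2% and 8.37%. The median log2 difference of the list was -0.08, -0.10 and -0.215, beside 0.00, 0.00 and 0.01 over all genes.

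Among the carriers, *Slc7a11*, the cystine/glutamate antiporter that releases glutamate in exchange for cystine, had 278 and 251 CPM in P6 WT against 10.7 and 12.2 CPM in P6 cKO. It was lower in cKO than in WT by 4.53 ± 0.0928 on the log2 scale at P6 (adjusted p = 5.57e-09) and by 2.65 ± 0.0842 at P8 (adjusted p = 3.87e-08). At P8 it had 495 and 498 CPM in WT and 74.7 and 83.7 CPM in cKO. At P1 it was 1.52-fold higher in cKO (adjusted p = 0.00151). *Slc1a6*, the carrier EAAT4, which is best known from Purkinje cells, was low at P1. It had 1.24 and 0.59 CPM in WT and 6.801 and 8.99 CPM in cKO, a log2 difference of 3.14 ± 0.274 (adjusted p = 0.000116). At P6 it was the other way, with 48.4 and 47.5 CPM in WT and 13.2 and 14.6 CPM in cKO (log2 difference -1.79 ± 0.235, adjusted p = 0.000485). *Slc38a2* (SNAT2), a sodium-coupled glutamine carrier, stood at 668 and 709 CPM in P8 WT and at 189 and 185 CPM in P8 cKO, a log2 difference of -1.88 ± 0.0482 (adjusted p = 1.05e-08). In P6 the same gene had 164 and 161 CPM in WT and 178 and 187 CPM in cKO, so that its P8 difference came with a higher level in WT. Like *Slc1a5*, then, *Slc7a11* and *Slc38a2* were lower in cKO at P8, where the P8 WT libraries held their highest values of all 12.

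The sodium gradient that drives uptake is kept by the sodium pump. *Atp1b1*, a beta subunit of that pump, was lower in cKO by -1.27 ± 0.0376 at P6 (adjusted p = 4.11e-08) and by -2.71 ± 0.0395 at P8 (adjusted p = 9.31e-10), where WT had 373 and 389 CPM and cKO 58.7 and 57.6 CPM. Of the 7 genes for pumps and channels, 5 were lower in cKO at P8. Among them was *Kcnj10*, the potassium channel Kir4.1, lower by 1.66 ± 0.0839 on the log2 scale (adjusted p = 6.24e-07). Of the mitochondrial carriers, *Slc25a18*, a glutamate carrier, was higher in cKO at P6 (0.78 ± 0.131, adjusted p = 0.00212) and *Slc25a13*, an aspartate/glutamate carrier, at P8 (1.32 ± 0.173, adjusted p = 0.000297), where WT had 4.59 and 6.66 CPM and cKO 14.8 and 13.3 CPM. Among the 11 other enzymes edgeR called 1 difference between labels over the 3 time points. This was *Oat*, which encodes ornithine aminotransferase, lower in cKO at P6.

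**Figure D5:**
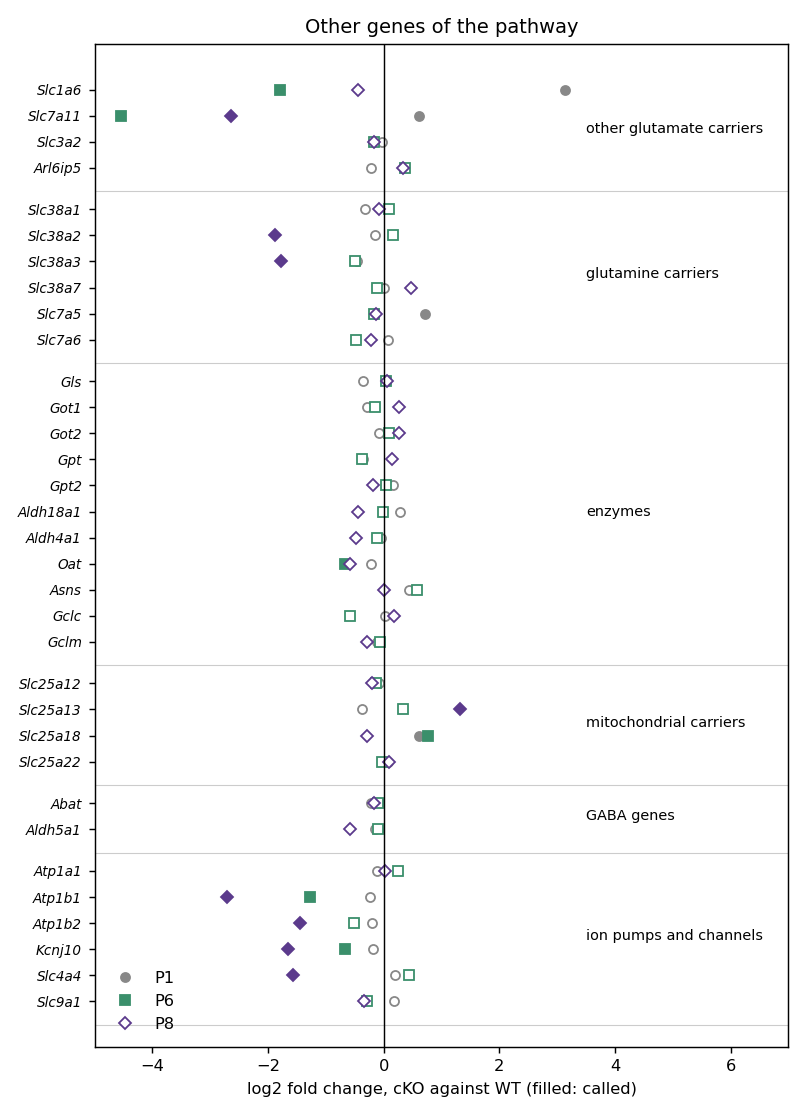
Log2 fold change of cKO against WT (horizontal axis) for genes of the wider pathway list, of which not all are drawn, grouped by role, at P1 (grey circles), P6 (green squares) and P8 (purple diamonds), with filled symbols for genes called. *Slc7a11* at P6 lies farthest to the left at -4.53, the enzymes stay near 0, and most of the pump and channel genes drawn have filled P8 symbols on the left.

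At P8, where the differences were most numerous, astrocyte markers also differed: 6 of the 10 in the table were lower in cKO and none higher by the call, with a median log2 difference of -1.02. *Aldh1l1*, a folate enzyme used as an astrocyte marker, ran the other way, at 52.4 and 51.3 CPM in WT and 73.3 and 72.1 CPM in cKO (0.49 ± 0.068, adjusted p = 0.000446), under the 1.5-fold limit of the call. *Aqp4* stood at 443 and 451 CPM in WT against 113.5 and 109 CPM in cKO, and *Gfap* at 372 and 385 CPM against 184 and 176 CPM, while *Gja1* had 360 and 712 CPM in WT, which themselves differed, against 113.5 and 120.4 CPM. The summed level was 1408 and 1775 CPM in WT and 583 and 582 CPM in cKO. The 9 microglia markers in the table summed to 2580 and 2457 CPM in P8 WT and 5007 and 5000 CPM in P8 cKO, and 6 of them were called higher and 1, *Tmem119*, lower. *Glud1* had a positive log2 difference at P8 and *Slc1a4* one of -0.06. The part of these markers in the P8 differences of *Slc1a2*, *Slc1a3*, *Slc1a5* and *Glul* was not tested.

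Genes whose course over the 6 group means was most like that of a member were sought among 13382 genes with a mean of at least 1 CPM, by the root mean square difference of centred log2 values, for the 3 members whose group means spanned at least 1 on the log2 scale. Nearest to *Slc1a3* were *Ccdc96* (0.105) and *Ccdc160* (0.138). *Ccdc96* had group means of 14.8, 8.08 and 3.90 CPM in WT at P1, P6 and P8 and of 14.7, 7.98 and 3.41 CPM in cKO. Nearest to *Slc1a5* were *Cdc42ep2* (0.135) and *Zic2* (0.195), the latter a transcription factor gene with group means of 22.4, 45.2 and 80.4 CPM in WT and of 28.1, 13.5 and 41.3 CPM in cKO. Nearest to *Slc1a2* were *Ctf1* (0.137) and *Rwdd2a* (0.190), a likeness that includes the P1 cKO mean held down by 1 library. Among the members themselves the closest pair by the same measure was *Glul* and *Glud1* (0.247) and the most distant *Slc1a3* and *Slc1a5* (1.45). *Glul* and *Glud1* spanned only 0.515 and 0.385, under the minimum of 1, so their closeness shows how little both varied, not a shared course. Their log2 differences between labels had opposite signs, -0.43 and 0.14 at P6 and -0.33 and 0.19 at P8.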

How the data were processed

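RNA-seq libraries of primary mouse astrocytes in 6 groups of 2 were used, grouped by the labels for genotype and time. The authors deposited counts, whole numbers of reads per gene without normalization, made from reads mapped with HISAT2 to mm10 (GRCm38) according to the methods and the submitters' processing notes. No source used here gives the counting program, annotation or strand setting, and a read where genes overlap could belong to either. Positions and lengths came from GENCODE vM21 for GRCm38, and promoters from RefSeq (GRCm38.p6), which held 6 of the 7 genes chosen.

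Counts were fitted in edgeR 4.0.16 (R 4.3.3, with limma 3.58.1) with TMM scaling, edgeR's expression filter and 1 mean for each of the 6 groups over all 12 libraries. Contrasts were cKO minus WT per time point, steps in time within a label, and differences of genotype effects between time points. The standard error is the log2 fold change over the root of F. With 2 libraries against 2, an exact two-sided permutation test cannot go below 0.333, so tests rest on the spread shared over genes and groups, whose common biological coefficient of variation was 0.178. The difference between replicates exceeded counting noise (chi-square divided by degrees of freedom, 30.5 to 47.1), and p-values measure only the spread between these samples. The fits were tested on simulated data. Those counts gave every gene the same spread, so they do not cover a gene with replicates as far apart as those of *Slc1a2*.

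Replicates of the same number in both labels did not deviate together (correlations -0.014, -0.001 and -0.05), so the numbers were not taken as pairs. Alternatives were DESeq2 1.42.0, its size factors in edgeR, no filter, a replicate block, the compared groups alone, an unadjusted p with the fold change of 1.5 as in the study's methods, a fold change of at least 2, and each library left out in turn. The genes and lists were chosen with earlier results of these data known. Named were all genes of the group, up to 3 pathway genes each way per time point with the largest called change and a mean of at least 1 CPM, the 2 genes nearest in course, the 3 most abundant astrocyte markers and *Zmynd8*. *Kcnj10*, *Oat*, *Got1*, the markers *Dpt*, *Lum*, *Aldh1l1*, *Tmem119*, *Cdh5*, *Tek* and *Flt1*, and the neighbours of *Slc1a2* were named after their values were seen. The markers *Stmn2*, *Tubb3* and *Acta2* were likewise named after their values were seen. Lists for oligodendrocyte lineage, neuron, mural, ependymal, neural stem and proliferation markers were also summed. Single-gene results of some members of the pathway list are not reported here.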

Additional observations from a re-analysis of the deposited data

Results flagged for a closer look

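The results below stood out because the difference between the labels cKO and WT itself differed between time points by an interaction term in edgeR, with *Zmynd8* against the direction of the labels. Between P1 and P6 the genotype effect moved by -1.49 on the log2 scale for *Slc1a5* (adjusted p = 0.000782), by -0.48 for *Glul* (adjusted p = 0.00163) and by 0.31 for *Glud1* (adjusted p = 0.00299). Between P1 and P8 it moved by -1.11 for *Slc1a5* (adjusted p = 0.00217), by -0.38 for *Glul* (adjusted p = 0.00348) and by 0.37 for *Glud1* (adjusted p = 0.000653). Over the same interval it moved by -0.44 for *Slc1a3* (adjusted p = 0.0204) and by -0.49 for *Slc1a4* (adjusted p = 0.0194), both of which lost the call when single libraries were left out. For *Glud1* the sign of the genotype difference turned, from -0.17 at P1 to 0.14 at P6 and 0.19 at P8. Groups of 2 libraries are too small for a test of single outlying samples, and the P1 library labelled cKO with 12.6 CPM of *Slc1a2* was therefore not tested as one.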

How the results depend on the processing

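Of 1224 values of single genes under an alternative, 1190 kept their direction and call, 13 lost the call, 19 gained it and 2 reversed. *Slc1a2* accounted for 13 of these changes, *Slc1a3* and *Slc1a4* for 9 each and *Slc1a5* for 3, and *Glul* and *Glud1* had none. Most of the 1224 values came from leaving out single libraries. A library outside the groups compared bears on the error and scaling, hardly on the log2 difference, so much of this agreement was set in advance. The same holds for the numbers of genes called. Both reversals were of *Slc1a2*: P8 against P1 in cKO became -0.78 (adjusted p = 0.00705) without replicate 1 of P1 cKO, and the P8 to P1 difference of genotype effects became 1.69 (adjusted p = 0.000844) without replicate 2. The same values were 1.96 (adjusted p = 0.000122) without replicate 2 and -1.05 (adjusted p = 0.0075) without replicate 1. Of 225 numbers of genes called, 207 stayed within 1.5 times. For the P8 to P6 difference of genotype effects, 0 called became 1 with DESeq2, 2 with the compared groups alone and 2 by unadjusted p. Between labels at P8, 1 became 2 with the compared groups alone, *Slc1a2* being the addition. With a fold change of at least 2, not applied to interactions, WT had 0 called from P1 to P6 and 0 from P6 to P8, cKO had 1 from P1 to P8, and the pathway list had 2 at P1 and 5 at P6. For the rest, the cause was not tested.

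Leaving out single libraries gave 2 to 3 called from P1 to P6, 2 to 2 from P6 to P8 and 2 to 3 from P1 to P8 in WT, and 1 to 4, 2 to 2 and 2 to 3 in cKO. Between labels it gave 0 to 1 at P1, 1 to 1 at P6 and 1 to 2 at P8. Differences of genotype effects gave 3 to 4 from P1 to P6, 3 to 5 from P1 to P8 and 0 to 2 from P6 to P8. The step of *Slc1a5* from P1 to P6 in cKO passed the cut-off without replicate 2 of P1 cKO (-0.63) or replicate 1 of P6 cKO (-0.76). Without replicate 1 of P6 cKO the P6 to P8 difference of genotype effects was called for *Slc1a3* (-0.43, adjusted p = 0.00266) and *Slc1a5* (0.59, adjusted p = 0.0472). Without replicate 2 of P6 cKO the P1 to P6 one was called for *Slc1a3* (-0.31, adjusted p = 0.0187). In these fits a lone library was taken to vary as the other groups do.

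With the replicate block, no call changed, and *Slc1a5* at P6 was -1.68 (adjusted p = 9.29e-05), while *Slc1a4* at P6, under the fold cut-off in any case, had an adjusted p of 0.0533. Depth did not limit the 6 genes, whose lowest value was 4.96 CPM in libraries of at least 54413504 counts, and the 2 libraries per group limit the precision.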

Other observations

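The other marker lists gave the following sums. Neuron markers, of which 3 of 10 were in the table, had 124.7 and 115.5 CPM in P6 WT and 248.7 and 231.5 CPM in P6 cKO, and 68.5 and 65.2 CPM in P8 WT against 176 and 178 CPM in P8 cKO. Most of this sum was *Stmn2*, at 105 and 97.8 CPM in P6 WT and 228 and 211 CPM in P6 cKO. By the call 2 of the 3 were higher in cKO at P6 and at P8, while *Tubb3* overlapped between labels at P6. Neural stem cell markers summed to 3788 and 3922 CPM in P6 WT and 6324 and 6188 CPM in P6 cKO, where 3 of 6 were called higher and 1 lower in cKO. Mural markers lay between 1761 and 2944 CPM, oligodendrocyte lineage markers between 162 and 262.5 CPM, and proliferation markers between 583 and 906 CPM over the 12 libraries. Most of the mural sum was *Acta2*, at 1581 to 2767 CPM, and at P6 1 of the 6 mural markers was called higher and 4 lower in cKO. Ependymal and choroid plexus markers went from 231 and 239.9 CPM in P1 WT to 35.1 and 35.4 CPM in P8 WT, and from 227 and 244 CPM to 51.3 and 50.3 CPM in cKO.

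Taken as a sum, the 6 genes made up 0.116% and 0.121% of counts in P1 WT and 0.0867% and 0.0879% in P8 WT, and 0.11% and 0.114% in P1 cKO against 0.0692% and 0.0705% in P8 cKO. Of the 17 genes as far apart as *Slc1a2* between the P1 replicates labelled cKO, 3 belong to the protocadherin gamma cluster (*Pcdhga2*, *Pcdhga9* and *Pcdhgb8*) and 5 are gene models named Gm with a number. *Fgf2* was among them, at 5.54 CPM in replicate 1 and 74.6 CPM in replicate 2, and it also differed between the P6 replicates labelled cKO, at 99.8 and 9.68 CPM. *B3gnt2* stood at 8.07 and 58.6 CPM in the P1 replicates labelled cKO. These genes were named after their values were seen, and the cause was not tested.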
